A study of Mus musculus with 8 samples.

Results

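Nfe2l2, Keap1, Gclc, Gclm, Hmox1 and Nqo1 are 6 genes of the NRF2 response to oxidative stress, and they are described here by the DNA copy level around them in 8 mouse liver tumors. Each gene was represented by the probes whose midpoint lay within 0.5 Mb of its mm9 position. These windows held 469 of the 170305 different probes of the array, 170183 of which lie on the autosomes and X. Nfe2l2 (chr2:75020000-76020000) had 64 probes, Keap1 (chr9:20540000-21540000) 105, Gclc (chr9:77120000-78120000) 78, Gclm (chr3:121460000-122460000) 81, Hmox1 (chr8:77120000-78120000) 62 and Nqo1 (chr8:109420000-110420000) 79. A window spans neighbouring genes as well, so each value is a level of the locus and not of the coding sequence alone. The 6 genes were chosen as members of the pathway, with earlier results of these data known.

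The tumors came from 8 individual male FAH-/- mice, which lack the enzyme fumarylacetoacetate hydrolase at the end of tyrosine breakdown. The mice normally drank water with 7.5 mg/L NTBC (nitisinone), a drug that blocks tyrosine breakdown upstream, and had been held at 2.5% of that dose for between 6 and 12 months. The reference on every array was 1 pool of DNA from the livers of 6 FAH+/+ male littermates, so its own spread between animals was not measured. Liver DNA of FAH-/- mice without a tumor was not analysed here. Tumor DNA carried Cy5 and pool DNA Cy3, without a dye swap. Tumors 1 to 4 shared slide 1 and tumors 5 to 8 slide 2. DNA was measured and RNA was not, so no value below is an expression level.

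NRF2, the product of Nfe2l2, is a transcription factor that turns on genes of glutathione synthesis and detoxification. KEAP1 is its sensor: it binds NRF2 and directs it to degradation until electrophiles or oxidants modify cysteines of KEAP1. Gclc and Gclm encode the catalytic and the modifier subunit of glutamate-cysteine ligase, which makes the precursor of glutathione. Hmox1 encodes heme oxygenase 1, which degrades heme, and Nqo1 a quinone reductase. In liver the pathway is known for protection against reactive metabolites, and in liver cancer for mutations that free NRF2 from KEAP1.

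The genes are tied to the factor through antioxidant response elements, short DNA sequences that NRF2 binds with small MAF proteins, and the promoters of the transcription factor and of one effector are shown because both hold the core of such an element. RefSeq promoters of 300 bases (250 before to 50 after the gene start, build GRCm38.p6) were matched by symbol for 4 of the 6 genes, namely Nfe2l2, Keap1, Gclm and Nqo1. The core TGACNNNGC was searched on both strands and is in capitals. The Nfe2l2 promoter lies at chr2:75704614-75704913 on the minus strand and the Gclm promoter at chr3:122245307-122245606 on the plus strand, and both are written 5′ to 3′ along the gene.
Nfe2l2: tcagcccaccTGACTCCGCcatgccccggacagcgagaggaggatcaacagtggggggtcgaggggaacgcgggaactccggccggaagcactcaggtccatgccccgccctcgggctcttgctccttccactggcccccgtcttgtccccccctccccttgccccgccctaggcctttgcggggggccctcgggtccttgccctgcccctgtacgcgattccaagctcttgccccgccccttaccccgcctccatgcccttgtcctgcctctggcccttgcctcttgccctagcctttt
Gclm: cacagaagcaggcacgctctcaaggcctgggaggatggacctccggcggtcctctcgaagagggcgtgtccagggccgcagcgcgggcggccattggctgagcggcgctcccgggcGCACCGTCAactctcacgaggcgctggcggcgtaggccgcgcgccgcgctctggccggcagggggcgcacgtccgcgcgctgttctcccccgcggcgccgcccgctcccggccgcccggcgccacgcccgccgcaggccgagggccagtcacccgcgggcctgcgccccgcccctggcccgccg
In Nfe2l2 the core begins at base 11 of the window on the strand of the gene. In Gclm it begins at base 117 and reads on the other strand, so that its letters appear as the reverse complement. No match was present in the windows of Keap1 and Nqo1, which says only that these letters are not within these 300 bases. The core was present in 4071 of 32851 RefSeq promoters of this length (12.4%), so a match is a description and not a binding site. The copy data do not resolve promoters, since neighbouring probes lie kilobases apart.

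All levels are log2 ratios of tumor over pool, set to 0 at the commonest level of the autosomes in each tumor. That level lay 0.02 to 0.23 above the median of all probes of the array. A loss of 1 of 2 copies in every cell would give -1, and a gain of 1 copy 0.58. Cells without the change pull a level towards 0, so the number of copies and the proportion of cells that carry the change cannot be told apart. A window counted as lost at -0.2 or lower and as gained at 0.2 or higher. The arrays shared a pattern of ratios from probe to probe: 36.5% of probes lay below the rest of their chromosome in all 8 tumors and 26.4% above it in all 8. The pattern was about equally strong in tumors 1 to 6 (slope 1.03 to 1.08) and weaker in tumors 7 and 8 (0.574 and 0.603), which also had another number series in their titles. Probe noise on the uncorrected scale, which includes the pattern, was lower in tumors 7 and 8 (0.389 and 0.388, against 0.62 to 0.65). With the pattern removed, tumors 7 and 8 had the highest probe noise (0.2135 and 0.1814, against 0.119 to 0.165). Values are therefore given on an uncorrected scale and on a second scale with the shared pattern subtracted. Subtraction also takes away any short change that most of the tumors have in common. Hence a shared short loss and a probe effect cannot be told apart on either scale.

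Of the 48 gene-by-tumor pairs, 10 were lost on the uncorrected scale and 8 with the pattern removed, 7 of them on both, and 0 were gained on either. Among 1 Mb tiles of the genome, 16.5% of tile-by-tumor pairs were lost and 7.07% gained on the uncorrected scale, and 14.7% and 4.44% with the pattern removed. Read against these shares, the losses of the 6 genes were near the background of the genome. They were unevenly spread over the tumors. Tumor 6 had 4 of its 6 genes lost on both scales (Keap1, Gclc, Hmox1 and Nqo1), beside 36.3% of its tiles on the uncorrected scale and 35.7% with the pattern removed. Tumor 4 had 3 lost on each scale, of which Gclm and Nqo1 were lost on both. Its Gclm lay at the threshold (-0.201 uncorrected and -0.205 with the pattern removed). Keap1 was lost there only on the uncorrected scale, and Gclc only with the pattern removed (-0.208). No share of tiles was taken for tumor 4 alone, so its count stands without a background. Tumor 3 lost only Gclm, tumors 2 and 7 lost only Keap1 and only on the uncorrected scale, and tumors 1, 5 and 8 lost none of the 6.

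**Figure D1:**
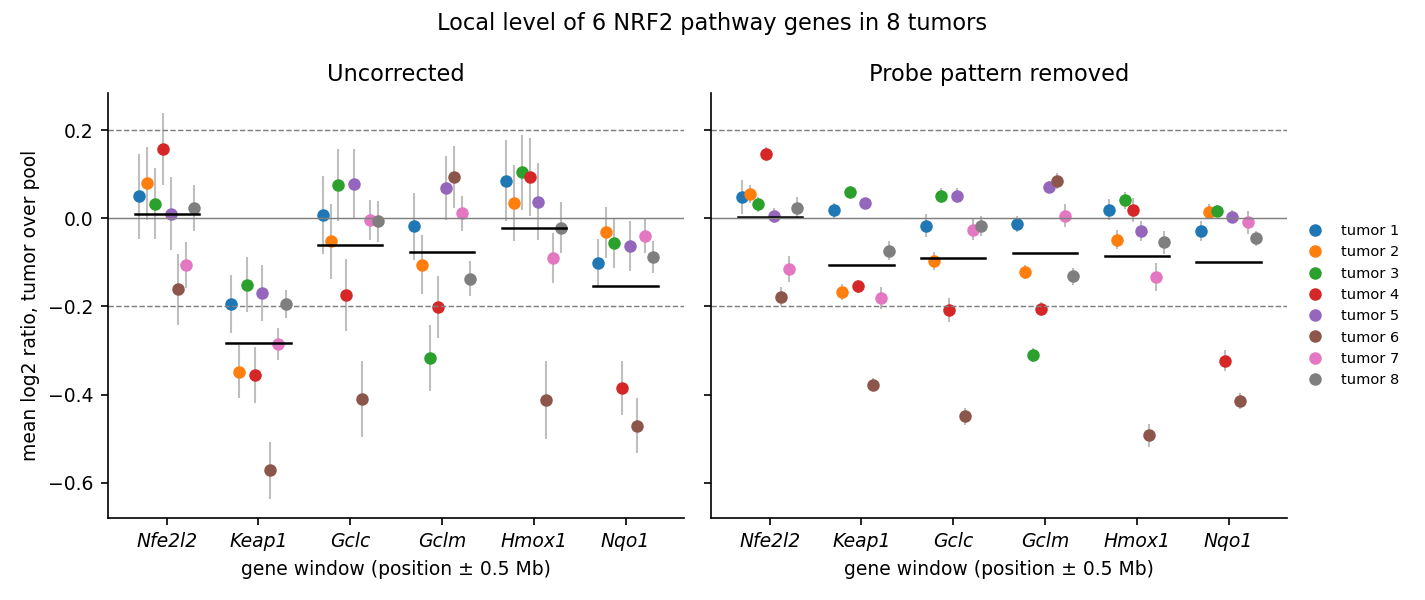
Mean log2 ratio of each gene window in each tumor (colours), on the uncorrected scale (left) and with the shared probe pattern removed (right). Grey bars are standard errors over the probes of a window, black lines are means of the 8 tumors, and dashed lines mark the thresholds for loss and gain (-0.2 and 0.2); tumor 6 is lowest at 5 genes, Keap1 is below 0 in all 8 tumors on the left and between -0.378 and 0.061 on the right, and no point reaches 0.2.

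The transcription factor gene Nfe2l2 was neither lost nor gained in any tumor. Its uncorrected level in tumors 1 to 8 was 0.051, 0.079, 0.033, 0.157, 0.011, -0.161, -0.106 and 0.023. Tumor 4 was the highest and tumor 6 the lowest, and with the pattern removed the same tumors stood at 0.145 and -0.178. These extremes followed chromosome 2 as a whole, whose other probes averaged 0.112 in tumor 4 and -0.186 in tumor 6 with the pattern removed. In tumor 6, 41.8% of the 177 tiles of chromosome 2 were past the threshold for loss on that scale, while the Nfe2l2 window stayed just inside it. The mean over the tumors was 0.011 ± 0.101 (SD, n = 8), which did not pass limma's test over 2537 windows (adjusted p = 0.866). The window minus the rest of chromosome 2 averaged 0.0042 ± 0.042 (limma adjusted p = 0.836). Nfe2l2 was the highest of the 6 genes in 3 tumors on the uncorrected scale and in 4 with the pattern removed.

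The sensor gene Keap1 had the lowest mean of the 6. On the uncorrected scale its level was -0.195, -0.348, -0.151, -0.355, -0.169, -0.572, -0.285 and -0.194 in tumors 1 to 8. All 8 tumors were below 0, and tumors 2, 4, 6 and 7 were past the threshold for loss. The mean was -0.284 ± 0.141 (SD, n = 8; limma adjusted p = 0.011 over all windows), and 9.05% of tiles were called lower in the same fit. The means within the slides were -0.262 and -0.305. Centred on array medians in place of the commonest level, the mean was -0.152 (limma adjusted p = 0.028). Without tumors 7 and 8 the mean was -0.298 and its limma adjusted p 0.0664, above the threshold of 0.05.

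On the uncorrected scale the Keap1 window was lower than the rest of chromosome 9 in every tumor. Window minus rest of the chromosome was -0.209, -0.236, -0.171, -0.208, -0.186, -0.131, -0.252 and -0.192. The difference varied little between tumors, although the rest of chromosome 9 was lost in tumor 6 and near 0 in others. The mean of -0.198 ± 0.038 passed limma's test (adjusted p = 6.48e-06), with slide means of -0.206 and -0.190. Many tiles did the same on this scale: 25% of tiles were called lower than the rest of their chromosome and 27.5% higher, and 17.5% lay below it in all 8 tumors. A depth of at least 0.2 was rarer, at 2.91% of tile-by-tumor pairs, and Keap1 reached it in 4 tumors.

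With the shared probe pattern removed, the Keap1 window passed neither test. Its level was then 0.018, -0.167, 0.061, -0.155, 0.035, -0.378, -0.181 and -0.073, with a mean of -0.105 ± 0.146 (limma adjusted p = 0.417). Tumor 6 alone remained lost. The difference from the rest of chromosome 9 averaged -0.017 ± 0.068 (limma adjusted p = 0.999) and ranged from -0.141 in tumor 7 to 0.074 in tumor 6. On this scale limma called 0% of tiles lower at their local level, where 232 tiles and 0 of the 6 genes had an unadjusted p under 0.05. It also called 0% of tiles lower than the rest of their chromosome, with 0 tiles and 0 genes at an unadjusted p under 0.05, as follows from subtracting a pattern that is itself the median over the tumors.

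Probe by probe, Keap1 was where the pattern was most one-sided among the 6 genes. Of its 105 probes, 57 (54.3%) lay below the rest of chromosome 9 in all 8 tumors, against 36.5% of all probes and 33.3% to 39.7% in the other 5 windows. Only 9.52% of its probes lay above it in all 8, against 26.4% of all probes. The mean of the shared pattern over the Keap1 window was lower than in all but 36 of 2531 tiles (1.42%). The low probes were not 1 contiguous block. Along the window in steps of 100 kb, 6 of 10 steps lay below the rest of the chromosome in 8 of 8 tumors, with step means from -0.42 to -0.27, and steps between them had means from -0.058 to 0.12. The 13 probes within 50 kb of the Keap1 position averaged -0.25 against the rest of chromosome 9 in tumor 7 and -0.21 in tumor 8 on the uncorrected scale, and between -0.068 and 0.073 in tumors 1 to 6. With the pattern removed these probes still stood at -0.25 in tumor 7 and -0.20 in tumor 8 against the rest, and between -0.061 and 0.080 in tumors 1 to 6. Standard errors over the 13 probes were then 0.10 in tumor 7, 0.10 in tumor 8 and 0.023 to 0.084 in tumors 1 to 6. Tumors 7 and 8 are also those with the weaker probe pattern.

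**Figure D2:**
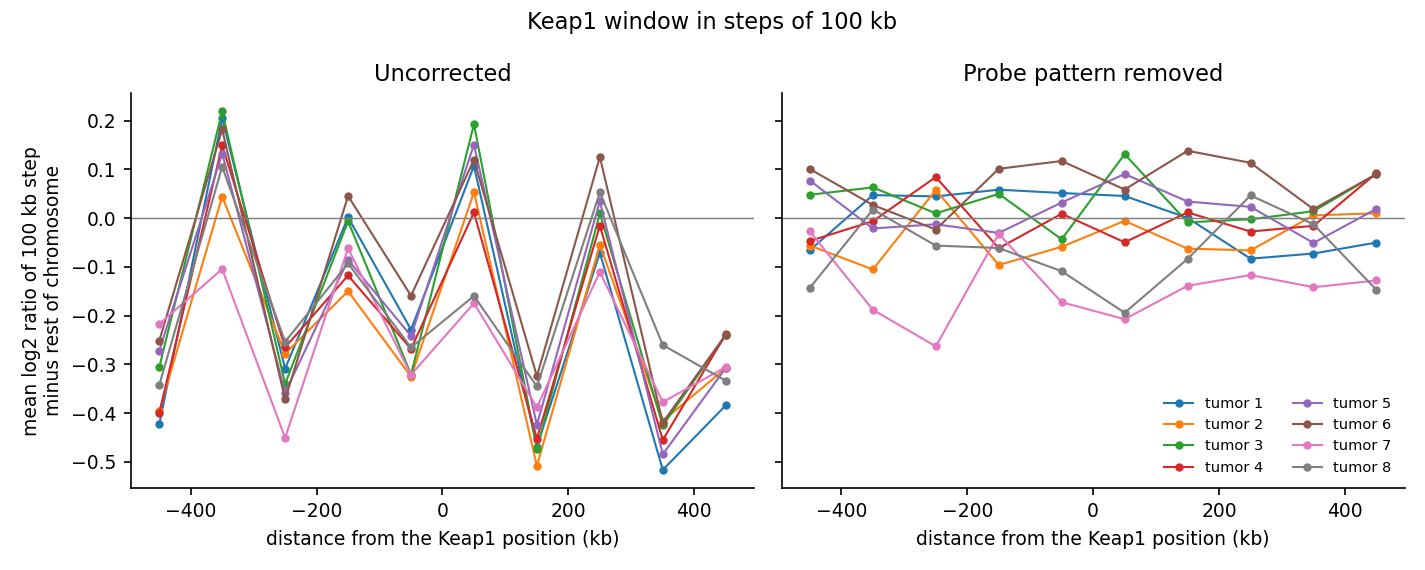
Mean log2 ratio of 100 kb steps minus the rest of chromosome 9 (vertical axis) by distance from the Keap1 position in kb (horizontal axis), 1 line per tumor, on the uncorrected scale (left) and with the shared pattern removed (right). The lines rise and fall together on the left, with 6 of 10 steps below 0 in all 8 tumors, and on the right they scatter around 0 with tumor 7 lowest in most steps.

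Gclc, the catalytic subunit gene, lies farther along the same chromosome 9 and was close to 0 in most tumors. Its uncorrected levels were 0.008, -0.052, 0.075, -0.174, 0.078, -0.410, -0.004 and -0.007. Only tumor 6 was lost on this scale, and tumor 4 crossed the threshold with the pattern removed (-0.208). Both calls stood beside a lowered chromosome: with the pattern removed the rest of chromosome 9 stood at -0.451 in tumor 6, where 100% of its 121 tiles were lost, and at -0.151 in tumor 4. On chromosome 9 of tumor 4, 2.48% of tiles were past the threshold, and the Gclc window differed from the rest by -0.057. The mean of -0.061 ± 0.162 did not pass (limma adjusted p = 0.443), and without tumor 6 it was -0.011. The difference from the chromosome of 0.027 did not pass either (limma adjusted p = 0.12), but with the normexp background correction it was 0.068 (limma adjusted p = 0.000711) and with a half-width of 0.25 Mb 0.059 (limma adjusted p = 0.0134), both called higher. Such calls were common: 719 of 2531 tiles were called higher than their chromosome with normexp and 696 with that half-width.

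Gclm, the modifier subunit gene on chromosome 3, was lost in tumors 3 and 4 on both scales. Its uncorrected levels were -0.018, -0.105, -0.317, -0.201, 0.069, 0.094, 0.012 and -0.137. Tumor 3 had lost the chromosome as a whole, with the rest of chromosome 3 at -0.311 and 100% of its 157 tiles past the threshold once the pattern was removed. Tumor 4 lay at the threshold, with the rest of its chromosome 3 at -0.164 and 12.1% of tiles lost. Tumor 6, the lowest at the other 5 genes, was the highest at Gclm. The mean of -0.075 ± 0.141 did not pass (limma adjusted p = 0.298), and the window differed from its chromosome by 0.0024 (limma adjusted p = 0.922). No tumor had both ligase subunit genes lost on the uncorrected scale; with the pattern removed tumor 4 did, at -0.208 for Gclc and -0.205 for Gclm.

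The heme oxygenase gene Hmox1 was lost in tumor 6 only. Its uncorrected levels were 0.085, 0.035, 0.104, 0.093, 0.038, -0.412, -0.091 and -0.021. In tumor 6 the whole of chromosome 8 was lost, with the rest of the chromosome at -0.486 and 100% of 126 tiles past the threshold with the pattern removed. The window mean of -0.021 ± 0.171 did not pass (limma adjusted p = 0.806) and was 0.035 without tumor 6. The window lay 0.068 ± 0.051 above the rest of chromosome 8 (limma adjusted p = 0.00873), higher in 7 of 8 tumors, beside the 27.5% of tiles called higher in that fit. This call was lost with the pattern removed (limma adjusted p = 0.999) and with the normexp background correction (0.029, limma adjusted p = 0.058). Close to the gene, tumors 7 and 8 stood apart from the other 6: the 8 probes within 50 kb lay 0.316 to 0.454 above the rest of chromosome 8 in tumors 1 to 6, tumor 6 with its lost chromosome included (0.35), against -0.161 in tumor 7 and 0.0018 in tumor 8. Standard errors over these 8 probes were 0.24 to 0.36 in tumors 1 to 6, 0.18 in tumor 7 and 0.15 in tumor 8. Equally small stretches elsewhere were not compared. With the pattern removed the differences were 0.028 to 0.161 in tumors 1 to 6 (standard errors 0.047 to 0.12), -0.316 in tumor 7 (0.070) and -0.162 in tumor 8 (0.037). Those are the tumors with the weaker probe pattern, and its part in this was not tested.

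The quinone reductase gene Nqo1 lies on the same chromosome 8 and was lost in tumors 4 and 6. Its uncorrected levels were -0.101, -0.031, -0.055, -0.385, -0.063, -0.470, -0.039 and -0.088. Tumors 4 and 6 were well below the other 6, which lay between -0.101 and -0.031, and all 8 were below 0. With the pattern removed they stood at -0.323 and -0.415, and the other 6 between -0.045 and 0.017. The mean of -0.154 ± 0.172 did not pass (limma adjusted p = 0.0844; 0.106 with the slide as a block). The losses differed in extent. In tumor 6 the window was level with its chromosome, at 0.0013 above the rest on the uncorrected scale and 0.071 above it with the pattern removed. In tumor 4 its difference from the rest was -0.330 on that scale and -0.260 with the pattern removed, the only pair of the 48 at least 0.2 below its chromosome on the latter, where 0.933% of tile-by-tumor pairs were.

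The loss in tumor 4 was a segment of chromosome 8 that took in Nqo1 near its distal end and left out Hmox1. With the pattern removed, the best single change points on either side placed it at chr8:87594415-110087005 (mm9), a length of 22.5 Mb. Its 1395 probes averaged -0.353 (standard error over probes 0.0055), against -0.0088 over the 5149 probes before it and -0.00091 over the 1608 after it. The distal edge fell between the probe that ends at base 110087005 and the one that starts at 110105555, 167 kb beyond the Nqo1 position. In steps of 100 kb from that position, the mean was -0.348 from 0 to 100 kb, -0.319 from 100 to 200 kb and 0.070 from 200 to 300 kb. The segment was not evenly low. Its 9 probes from -900 to -800 kb averaged -0.045 in tumor 4, between steps at -0.432 and -0.425, and -0.467 in tumor 6. On the uncorrected scale the distal edge lay 230.02 kb beyond the position and the proximal edge at base 87121106, so the edges are not known to the probe, and the Nqo1 position lies inside on both scales. The same segment differed from the rest of chromosome 8 by only 0.022 to 0.041 in the other 7 tumors with the pattern removed. The edges were found in the values that they then divide, so these means are a description without a test.

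**Figure D3:**
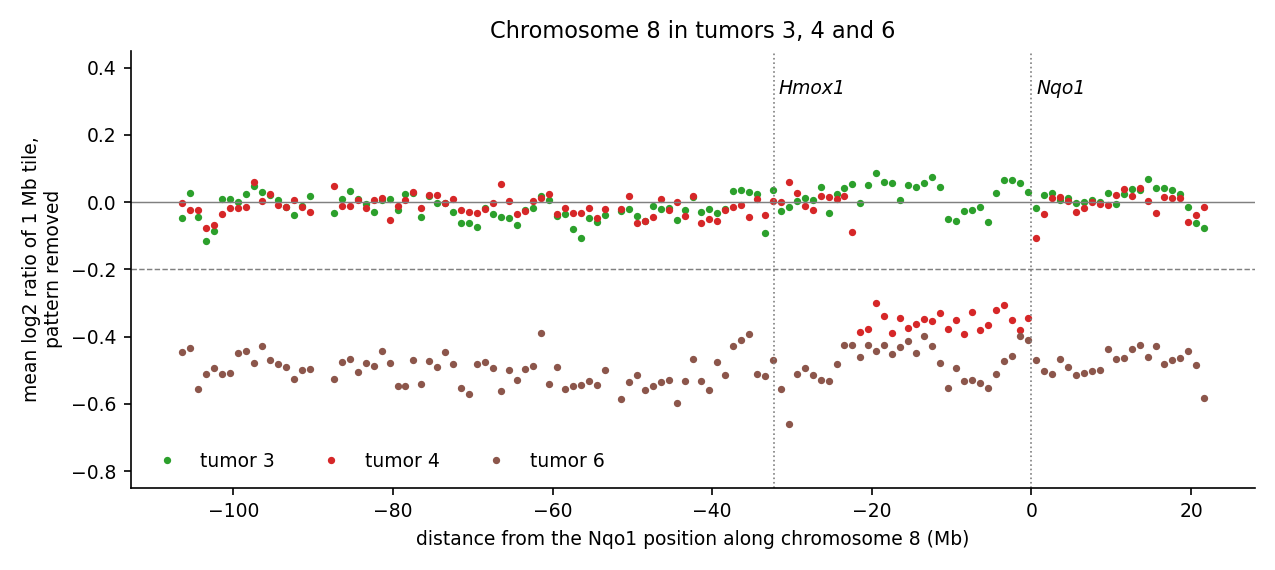
Mean log2 ratio of 1 Mb tiles of chromosome 8 with the probe pattern removed (vertical axis) by distance from the Nqo1 position in Mb (horizontal axis), in tumors 3, 4 and 6, with dotted lines at Hmox1 and Nqo1. Tumor 6 is low along the whole chromosome, tumor 4 is low only in a segment of 22.5 Mb that ends just past Nqo1, and tumor 3 stays near 0.

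Set side by side, the sensor gene stood below the effector genes on the uncorrected scale, and its order among them was mixed with the pattern removed. Keap1 lay below the mean of the 4 effector genes in 8 of 8 tumors, with differences from -0.31 to -0.10, and below each of the 4 in 6 tumors. After removal of the pattern Keap1 lay below that mean in 4 of 8 tumors, with a mean difference of -0.018 and a range from -0.14 to 0.11. The subtraction pulls each window towards its own chromosome, so this change is partly built in. Nfe2l2 minus Keap1 ranged from 0.18 to 0.51 on the uncorrected scale and from -0.029 to 0.30 with the pattern removed. The transcription factor gene was on average 0.089 above the effector mean on the uncorrected scale and 0.090 above it with the pattern removed. On both scales the largest values of both differences were in tumor 4, where Nfe2l2 was at its highest and Nqo1 was lost.

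A pair on 1 chromosome gives this comparison without differences between chromosomes. Gclc minus Keap1 was 0.223 ± 0.049 (SD, n = 8) on the uncorrected scale and above 0 in 8 of 8 tumors (two-sided exact sign-flip test, p = 0.00781, adjusted p = 0.0156 over 2 pairs), where 0.00781 is the smallest p that 8 tumors allow. The shared probe pattern enters this difference, and 17.5% of tiles lay below their chromosome in all 8 tumors on this scale. No share of tile pairs with so small a p was taken, so this p stands without a background. With the pattern removed it was 0.016 ± 0.075 and above 0 in 4 of 8 (exact p = 0.602, adjusted p = 0.906). The pair of effectors on chromosome 8, Nqo1 minus Hmox1, was -0.133 ± 0.157 on the uncorrected scale and below 0 in 7 of 8 tumors (exact p = 0.0156, adjusted p = 0.0156). Its slide means were -0.222 and -0.0435, and tumor 4, whose lost segment holds Nqo1 and not Hmox1, stood at -0.478; without that tumor the mean was -0.0837 (exact p = 0.0313). After removal of the pattern the mean was -0.014 ± 0.144 (exact p = 0.906, adjusted p = 0.906), and tumor 4 alone was far from 0, at -0.343. The subtracted pattern is the median over these same tumors, net of the chromosome. Subtracting it pulls the difference of 2 windows on 1 chromosome towards 0. The results of both pairs with the pattern removed were therefore partly fixed in advance. The p-values measure the spread over these 8 tumors against 1 common pool.

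**Figure D4:**
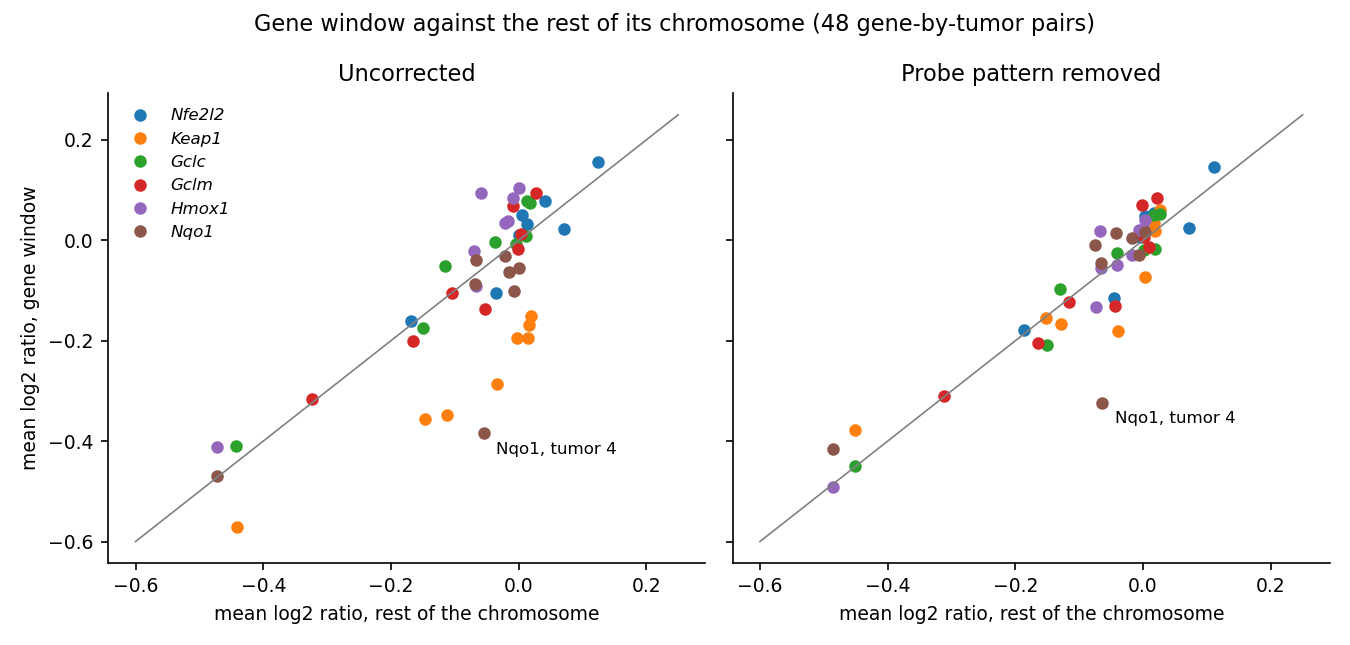
Mean log2 ratio of each gene window (vertical axis) against the rest of its chromosome (horizontal axis) for the 48 gene-by-tumor pairs, coloured by gene, on the uncorrected scale (left) and with the probe pattern removed (right); the line marks equality. The 8 Keap1 points lie below the line on the left and scatter around it on the right (window minus rest from -0.141 to 0.074), and Nqo1 in tumor 4 lies far below it on both.

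With the pattern removed, 5 of the 6 windows were closest to their own chromosome among the autosomes, by the root mean square difference over 8 tumors. That difference was 0.039 for Nfe2l2, 0.065 for Keap1, 0.031 for Gclc, 0.048 for Gclm and 0.041 for Hmox1. Nqo1 was the exception, with 0.10 from chromosome 8 and 0.085 from chromosome 9. Between genes, Gclc and Nqo1 were most alike (0.063), followed by Keap1 and Gclc (0.072). Keap1, Gclc and Nqo1 share the loss in tumor 6, in which chromosomes 8 and 9 were both lost. The closeness of a window to its own chromosome is partly built in. The subtracted pattern is taken net of that chromosome's median over the same arrays, and the chromosome mean includes the probes of the window. These likenesses are a description of 8 tumors without a test.

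A list of 50 further genes of the pathway was placed by chromosome alone, through RefSeq, since their mm9 positions were not used here. A chromosome counted as lost or gained by its mean, which a change of only part of it can also reach. A list gene may therefore lie outside the changed part. Over all tumors 44 of 400 gene-by-tumor pairs (11.0%) lay on a chromosome whose uncorrected mean was past the threshold for loss, and 15 (3.75%) on a gained one. For 21627 protein-coding genes the shares were 12.2% and 3.74%, so the list was near the background. Gsr (glutathione reductase), Osgin1 and Ces1g share chromosome 8 with Hmox1 and Nqo1, and Me1 (malic enzyme), Gsta1, Gsta2 and Gsta4 (glutathione transferases) share chromosome 9 with Keap1 and Gclc. All 7 were on a lost chromosome in tumor 6, where 17 of the 50 list genes were (34%). Of all protein-coding genes, 31.9% were on a lost chromosome in that tumor, so this count was near the background as well. Slc7a11, which imports cystine, lies with Gstm1, Gstm2 and Gstm3 on chromosome 3 beside Gclm, lost in tumor 3. Srxn1 (sulfiredoxin), Cat (catalase), Blvra and Gss (glutathione synthetase) lie on chromosome 2 with Nfe2l2, whose mean was past the threshold in 0 tumors.

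Some of the other list genes were on chromosomes that changed more often than those of the 6 genes. Those named below were picked because their chromosome was past the threshold in at least 2 tumors, so this contrast follows from the choice. The list genes left out were on chromosomes 1, 5, 7 and 16, each past the threshold in 1 tumor on the uncorrected scale, or on 10, 11 and 19, in 0 tumors. Chromosome 15, with Maff, a small MAF partner of NRF2, and Rbx1, a subunit of the ubiquitin ligase that KEAP1 serves, was gained in 5 of 8 tumors. Chromosome 12 with Gpx2 (a glutathione peroxidase) was lost in 4. Chromosome 4, with Bach2, Txn1 (thioredoxin), Prdx1, Pgd and Ptgr1, was lost in 2, as were chromosome 6 with Akr1b8, chromosome 13 with Nqo2 and X with G6pdx. The uncorrected mean of chromosome 4 was -0.679 in tumor 1 but -0.209, close to the threshold, in tumor 6. Chromosome 14, with Tkt (transketolase) and Abcc4, was lost in 2 tumors and gained in 1 on the uncorrected scale, and lost in 3 with the pattern removed.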

How the data were processed

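Genomic DNA of 8 liver tumors and of 1 reference pool was compared on 2-colour Agilent arrays with mm9 probe positions, per the file headers. Images were read by the authors in Agilent Feature Extraction 10.7.3.1, per the submitters' processing notes. The deposited processed signals are intensity values, background-subtracted and dye-normalized per the file headers, and the median signals of spots and background are deposited as unprocessed intensity values. The deposited log ratios are log10 of red over green, and a deposited series table repeats these log10 ratios with rounding, no more than 0.00499 apart. Quality marks of spots are deposited as 0 or 1 (unit: other).

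Processed signals were turned into log2 ratios (red over green) without marked outlier spots (115 to 221 per array), replicate spots were averaged, and 0 was set at each array's commonest autosomal level (density bandwidth 0.05, over means of 1 Mb tiles with at least 10 probes). Of the spots, 97.0% to 99.9% were well above background, and the number of arrays limits the precision. On the second scale, every probe's median ratio over the 8 arrays, taken net of chromosome medians, was fitted to each array by a slope and removed, leaving a probe noise of 0.119 to 0.213. The 2531 tiles and 6 windows were tested together with limma 3.58.1 (R 4.3.3, intercept only, two-sided, Benjamini-Hochberg adjusted p under 0.05), a step tested on simulated data. Differences of paired windows used exact sign-flip tests. Python 3.11.15 with numpy 2.4.6, pandas 2.3.3, scipy 1.17.1 and matplotlib 3.10.9 was used. The normexp alternative (offset 50) used median spot signals in place of the planned mean signals, which were not used here. All 6 genes are named, and list genes where they share a chromosome with one of the 6 or lie on a chromosome past 0.2 in at least 2 tumors on the uncorrected scale. The genes, the list and the second scale were chosen with earlier results of these data known. The edges of the tumor 4 segment were sought after the values had been seen.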

Additional observations from a re-analysis of the deposited data

Results flagged for a closer look

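Of 24 groups of 8 values (local level and difference from the chromosome, for 6 genes on both scales), 4 held a tumor farther from the others than Dixon's test at 95% allows, and chance flags about 1 in 20 groups. The local level of Hmox1 in tumor 6 was -0.412 on the uncorrected scale, where the nearest other tumor was at -0.0908, and -0.492 with the probe pattern removed, where the nearest was at -0.134. All of chromosome 8 was lost in that tumor. The difference of Nqo1 from the rest of chromosome 8 in tumor 4 was -0.330 on the uncorrected scale (nearest other tumor -0.0942) and -0.260 with the pattern removed (nearest -0.0231). That tumor carried the segment of lowered ratio on chromosome 8 that ends just beyond the gene.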

How the results depend on the processing

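No paired analysis was possible because the tumors form 1 group against 1 common pool. With the probe pattern removed from all tumors, with the pattern of the other tumors removed, or removed without tumor 6 or without tumors 7 and 8 (the last 3 chosen after seeing the data), the count of windows called lower by limma went from 1 to 0 for the local level and from 1 to 0 for the difference from the chromosome, and of windows called higher than their chromosome from 1 to 0. Under these 4 settings in turn, Gclc minus Keap1 was 0.016, 0.018, 0.028 and, reversed, -0.014, and Nqo1 minus Hmox1 was -0.014, -0.016, -0.027 and -0.041. The Keap1 difference from its chromosome also reversed without tumors 7 and 8, to 0.014 with the pattern removed. Against a limma test size of 0.1 on the uncorrected scale, 0 windows were locally lower and 0 higher than their chromosome. Keap1 was still called lower than its chromosome there (limma adjusted p = 0.00165), beside 60 of 2531 tiles. Leaving out tumors 7 and 8 on the uncorrected scale gave 0 locally lower. The median of the probes gave 5 locally lower and 0 higher than their chromosome, 17 windows lost, and -0.087 for Nqo1 minus Hmox1 (exact p = 0.133); the ratios are skewed and the centring stayed on means. Centring on array medians, which lie 0.02 to 0.23 lower, gave 1 window locally higher (Nfe2l2), turned the means of Gclc, Gclm and Hmox1 positive (0.071, 0.056 and 0.11, none called), and gave 6 lost and 9 gained, against 10 and 0. A half-width of 0.25 Mb gave 2 windows higher than their chromosome (Hmox1 and Gclc), 2 gained and -0.150 for Nqo1 minus Hmox1 (exact p = 0.0625), and a half-width of 1 Mb 1 gained. With the normexp background 1 window was higher than its chromosome, as before, but Gclc in place of Hmox1. A threshold of 0.1 gave 20 lost and 2 gained. No share of tiles lost or gained was taken under these other settings, so such counts of windows lost and gained stand without a background. With each tumor left out in turn, the lost windows numbered 6 to 10, with 6 without tumor 6 (4 with the pattern removed), Gclc minus Keap1 stayed at 0.212 to 0.232 and Nqo1 minus Hmox1 at -0.159 to -0.0837. Apart from the pattern subtraction and the construction of the medians, the cause of these shifts was not tested. Over 1 Mb tiles, the count called locally lower was 229 of 2531, and 4 without tumors 7 and 8. It was 1273 with the median of the probes. Centring on array medians called 843 tiles locally higher, against 137 with the commonest level. Tiles called higher than their chromosome numbered 697 on the uncorrected scale, 719 with the normexp background and 696 with a half-width of 0.25 Mb.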
